A study of Mus musculus with 8 samples.

Results

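The genes described here are 7 chemokine receptors that govern where myeloid cells go, Cxcr1, Cxcr2, Cxcr4, Ccr1, Ccr2, Cx3cr1 and Ccrl2. They were taken as the rows of the count table whose gene symbol matched one of these names exactly, which gave 7 of 54188 genes. All 7 passed the filter on low counts, which kept 17650 genes for testing. RNA was sequenced from CD11b+ cells (written CD11+ in the sample labels) that had been sorted into Gr-1hi and Gr-1lo subsets taken from spleen (SP) or bone marrow (BM), with 2 libraries in each of 4 groups. The libraries carry the numbers 5 and 6 (SP Gr-1hi), 7 and 8 (SP Gr-1lo), 9 and 10 (BM Gr-1hi) and 11 and 12 (BM Gr-1lo). The mice in every group were sanroque, that is, homozygous for the san allele of Roquin (Roquin san/san) on the C57BL/6 background, labelled female and aged about 20 weeks. Roquin is an RNA-binding protein that represses immune transcripts, and mice homozygous for san develop a lupus-like autoimmune disease. The labels call Gr-1hi cells G-MDSC and Gr-1lo cells M-MDSC (granulocytic and monocytic myeloid-derived suppressor cells), and the study calls the spleen populations SDMC. Every library compared here carries the san allele and none is wild type, so the values describe tissue and subset within sanroque mice and not an effect of the allele. The germline allele is present in all cells of these mice. The study describes the marrow cells as autologous, but which libraries share an animal is not given in the labels.

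Chemokine receptors are G protein-coupled receptors that steer leukocytes along gradients of chemokines. In bone marrow, CXCR4 holds neutrophils and their precursors close to stromal cells that make its ligand CXCL12, whereas CXCR2, which binds the neutrophil-attracting CXC chemokines, promotes their release into blood. CCR2 is needed for inflammatory monocytes to leave the marrow, CX3CR1 marks monocytes that patrol vessels, CCR1 responds to inflammatory CC chemokines, and CCRL2 binds chemerin without signalling in the usual way.

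The 7 genes lie on chromosomes 1 and 9 of the mouse genome (GRCm38), and pairs of neighbours among them had like or opposite subset patterns. Cxcr2 (chr1:74153989-74161246, plus strand) and Cxcr1 (chr1:74191785-74194631, minus strand) lie at the ends of a 40.6 kb stretch with no other annotated gene between them, and both were high in Gr-1hi cells. Ccr1 (chr9:123962124-123968692, minus strand) and Ccr2 (chr9:124101950-124113557, plus strand) lie near each other on chromosome 9, and their subset patterns were opposite. Cxcr4 (chr1:128588199-128592293, minus strand), Cx3cr1 (chr9:119901616-120069879, minus strand) and Ccrl2 (chr9:111054486-111057519, minus strand) lie apart from these pairs. The coding sequence of Cxcr4 is split over 2 exons and that of each other receptor lies in 1 exon in every annotated coding transcript. Of all 101-base stretches of the transcripts, the length of 1 read, at most 0.775% of those of any of the 7 receptors occurred in another gene.

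The promoters of these neighbouring pairs are shown because the pairs were expressed together or in opposite subsets, each from 250 bases before to 50 bases after the RefSeq start (GRCm38.p6), 5′ to 3′ on the strand of the gene, with matches to the motifs searched in capitals.
Cxcr2 promoter (chr1:74153744-74154043, plus strand): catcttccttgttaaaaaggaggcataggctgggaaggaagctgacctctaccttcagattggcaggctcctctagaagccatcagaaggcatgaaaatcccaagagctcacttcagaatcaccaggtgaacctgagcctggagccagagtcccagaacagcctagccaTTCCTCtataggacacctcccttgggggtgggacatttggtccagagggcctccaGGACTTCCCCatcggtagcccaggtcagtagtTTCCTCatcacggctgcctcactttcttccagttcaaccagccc
Cxcr1 promoter (chr1:74194582-74194881, minus strand): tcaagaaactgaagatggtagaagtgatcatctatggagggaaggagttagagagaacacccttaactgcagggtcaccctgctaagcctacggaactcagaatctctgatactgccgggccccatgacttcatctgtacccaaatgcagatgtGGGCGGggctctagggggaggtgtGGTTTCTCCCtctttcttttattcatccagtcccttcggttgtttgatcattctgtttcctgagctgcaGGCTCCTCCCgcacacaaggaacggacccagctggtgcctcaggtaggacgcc
Ccr1 promoter (chr9:123968643-123968942, minus strand): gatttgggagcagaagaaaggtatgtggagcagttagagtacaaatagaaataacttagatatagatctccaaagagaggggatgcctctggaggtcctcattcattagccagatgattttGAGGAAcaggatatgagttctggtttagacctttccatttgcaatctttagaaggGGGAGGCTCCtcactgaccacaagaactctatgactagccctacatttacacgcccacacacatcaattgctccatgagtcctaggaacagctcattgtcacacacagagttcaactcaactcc
Ccr2 promoter (chr9:124101933-124102232, plus strand): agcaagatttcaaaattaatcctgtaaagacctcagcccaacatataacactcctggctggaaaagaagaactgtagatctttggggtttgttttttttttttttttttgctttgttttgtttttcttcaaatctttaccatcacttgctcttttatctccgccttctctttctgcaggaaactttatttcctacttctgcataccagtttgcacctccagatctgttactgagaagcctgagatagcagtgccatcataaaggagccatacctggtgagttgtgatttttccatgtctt

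RefSeq promoters were found for 7 of the 7 receptors. On both strands, GAGGAA (a core bound by PU.1 and other ETS factors) occurred in the windows of Cxcr2 and Ccr1 and in 28.3% of all 32851 promoters. A loose form of the NF-kB motif, GGG and CC with any 5 bases between them, occurred in windows of Cxcr2, Cxcr1, Ccr1, Ccrl2 and Cx3cr1 and in 50.8% of all promoters. GGGCGG, the GC box, occurred in windows of Cxcr1, Cxcr4 and Ccrl2 and in 35.7% of all promoters. The Ccr2 window held none of these letters, nor TTGCNNAA (C/EBP, 10.8% of all promoters), TGANTCA (AP-1, 7.8%), the interferon-stimulated response element searched as 2 copies of GAAA with any 2 bases between them (3.4%) or TATAAA, the core promoter box bound by TBP (13.6%). Among the windows not shown, that of Cxcr4 held GGGCGG at 3 places and TATAAA on both strands at a single place. Ccrl2 had several windows, and those starting at chr9:111057195 and chr9:111057221 held none of the motifs searched. Its NF-kB and GC box matches lay in the window at chr9:111057469-111057768. These matches describe the letters of the windows and do not show that a factor binds there.

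The libraries held between 33453580 and 68316154 reads counted to genes, and library 8 was the deepest. Levels are given as counts per 1000000 (CPM), scaled to library sizes adjusted by TMM, and a count of 3 corresponded to 0.0348 to 0.124 CPM. The sorted subsets were checked against their markers. Ly6g, which the Gr-1 antibody recognises together with Ly6C, had 330 to 801 CPM in Gr-1hi and 3.07 to 8.23 CPM in Gr-1lo libraries, and 10 of 10 neutrophil markers were higher in Gr-1hi cells in both tissues. In Gr-1lo cells, 8 of 9 monocyte markers were higher than in Gr-1hi cells in each tissue, and so were 8 of 8 markers of granulocyte precursors and dividing cells (such as Mpo and Elane). Markers of several other cell types were higher in the spleen libraries, B cell, T cell, plasma cell and erythroid markers among them, but not those of eosinophils and basophils. The summed level of 10 B cell markers was 360 to 537 CPM in SP Gr-1hi against 16.3 to 19.9 CPM in BM Gr-1hi, and 66.7 to 83.8 CPM in SP Gr-1lo against 8.07 to 9.90 CPM in BM Gr-1lo. Although all mice are labelled female, the X-inactivation transcript Xist was counted 12032 times in library 5 and 9898 times in library 7, and no more than 5 times elsewhere, and the Y-linked Ddx3y had 33.7 to 82.6 CPM in the 7 libraries other than library 5. Library 7 therefore held both transcripts. Both libraries with Xist came from the spleen, and every marrow library had Ddx3y and at most 5 counts of Xist. These sex-linked transcripts were thus not balanced between the tissues, and the part of sex in the tissue differences was not tested. Some results, but not all, are also given without libraries 5 and 7.

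The first question was how the receptors are divided between granulocytic and monocytic cells. All 7 receptors passed the test (adjusted p at most 0.05 and at least a 2-fold difference) between Gr-1hi and Gr-1lo cells, in the spleen and in the bone marrow alike, with 5 higher and 2 lower in Gr-1hi cells in each tissue. Such calls were common among all genes tested, at 49.6% in the spleen and 57.3% in the bone marrow, so that 7 of 7 is read against a background near 1 gene in 2. Under a stricter rule (adjusted p below 0.01 and more than an 8-fold difference), Cxcr1, Cxcr2 and Ccr2 were called in the spleen, 3 of 7 where 7.37% of all genes were called. Cx3cr1 joined them in the bone marrow, 4 of 7 where 16.7% of all genes were called. The median log2 difference (Gr-1hi minus Gr-1lo) of the 7 receptors was 2.27 in the spleen and 1.78 in the bone marrow, and that of all genes tested was -0.09 and -0.17. Without libraries 5 and 7, 5 of 7 receptors were called in the spleen, Ccr2 and Cx3cr1 falling short, and with no filter 6 of 7 were called in each tissue, Ccrl2 falling short. In bulk libraries such as these, fewer cells that express a gene and less of its RNA per cell cannot be told apart. Each group has 2 libraries, described in the methods as independent biological replicates. The p-values measure the spread between libraries only. The fit estimates 1 spread per gene from all 8 libraries, so a comparison of 2 groups also draws on the spread within the other groups.

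Cxcr2 was the receptor with the highest level in Gr-1hi cells. It had 2760 and 2269 CPM in SP Gr-1hi, 2525 and 2300 CPM in BM Gr-1hi, 26.9 and 23.4 CPM in SP Gr-1lo, and 12.2 and 15.6 CPM in BM Gr-1lo. Every Gr-1hi library lay far above every Gr-1lo library. The log2 difference between the subsets was 6.64 ± 0.19 (SE, adjusted p = 1.71e-07) in the spleen and 7.44 ± 0.20 (SE, adjusted p = 6.66e-08) in the bone marrow. Ranked by CPM per kb of exon among the 17650 genes, Cxcr2 stood between places 64 and 87 in the Gr-1hi libraries.

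Cxcr1, which in mice shares CXC ligands with Cxcr2, had the same division at a far lower level. It had 53.5 and 27.9 CPM in SP Gr-1hi and 21.6 and 17.3 CPM in BM Gr-1hi. In Gr-1lo cells it was close to absent, with 1 and 8 counts (0.0211 and 0.0927 CPM) in the spleen libraries and 0 counts in both bone marrow libraries. The log2 difference in the spleen was 9.19 ± 0.55 (SE, adjusted p = 7.96e-06), and it was 10.68 without library 8 and 8.17 without libraries 5 and 7. In the bone marrow, Cxcr1 was at least 663-fold higher in Gr-1hi cells (at least 9.37 on the log2 scale), taking 3 counts over the Gr-1lo group as the floor. Per kb of exon, Cxcr2 exceeded Cxcr1 in every Gr-1hi library, by a mean log2 ratio of 4.99 ± 0.47 (SD, n = 2) in the spleen and 5.93 ± 0.13 (SD, n = 2) in the bone marrow.

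Ccr1, a receptor for CC chemokines such as CCL3 and CCL5, was also a receptor of the granulocytic side, but with a smaller contrast. It had 834 and 852 CPM in SP Gr-1hi, 806 and 805 CPM in BM Gr-1hi, 116 and 117 CPM in SP Gr-1lo, and 141 and 125 CPM in BM Gr-1lo. Its paired libraries differed from each other by at most 1.12-fold in any group, the narrowest spread among the 7. The log2 difference was 2.85 ± 0.09 (SE, adjusted p = 2.33e-07) in the spleen and 2.60 ± 0.09 (SE, adjusted p = 1.29e-07) in the bone marrow.

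Cxcr4, the retention receptor, was higher in Gr-1hi cells too, yet it was present at substantial levels in all 8 libraries. It had 267 and 345 CPM in SP Gr-1hi, 455 and 401 CPM in BM Gr-1hi, 82.6 and 90.2 CPM in SP Gr-1lo, and 128 and 146 CPM in BM Gr-1lo. The subsets did not overlap in either tissue. The log2 difference was 1.82 ± 0.14 (SE, adjusted p = 6.85e-06) in the spleen and 1.65 ± 0.14 (SE, adjusted p = 7.57e-06) in the bone marrow.

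Ccr2, the receptor by which inflammatory monocytes leave the marrow, was the mirror image of Cxcr2. It had 1451 and 1666 CPM in SP Gr-1lo, 1826 and 1697 CPM in BM Gr-1lo, 19.2 and 15.2 CPM in SP Gr-1hi, and 6.73 and 38.6 CPM in BM Gr-1hi. Every Gr-1lo library was above every Gr-1hi library. The log2 difference (Gr-1hi minus Gr-1lo) was -6.50 ± 0.86 (SE, adjusted p = 0.000806) in the spleen and -6.29 ± 0.85 (SE, adjusted p = 0.00078) in the bone marrow. Without libraries 5 and 7, the spleen difference was -6.80 and its adjusted p was 0.0828. The bone marrow difference was -5.46 without library 9 and -7.95 without library 10. Library 10, which had 5.73 times the Ccr2 CPM of library 9, also had more of other monocyte transcripts, with Fn1 at 31.2 against 1.12 CPM and F13a1 at 17.4 against 1.83 CPM. The summed level of the 9 monocyte markers was 1940 CPM in library 10 and 1470 CPM in library 9, against 9030 to 9700 CPM in BM Gr-1lo, and its part in the Ccr2 values was not tested.

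Cx3cr1, the fractalkine receptor, was the other receptor of the Gr-1lo side, at a low level. It had 46.9 and 40.2 CPM in SP Gr-1lo, 39.9 and 17.2 CPM in BM Gr-1lo, 10.6 and 6.06 CPM in SP Gr-1hi, and 2.24 and 4.58 CPM in BM Gr-1hi. The subsets did not overlap, although the 2 BM Gr-1lo libraries differed by 2.31-fold. The log2 difference was -2.39 ± 0.49 (SE, adjusted p = 0.00445) in the spleen and -3.07 ± 0.54 (SE, adjusted p = 0.00192) in the bone marrow. The bone marrow difference was -2.37 without library 11. The spleen call was lost without library 6 (-2.06, adjusted p = 0.0577) and without libraries 5 and 7 (-2.75, adjusted p = 0.0883).

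Ccrl2, the chemerin-binding receptor, had the widest spread of the 7 between the SP Gr-1hi libraries, at 2.67-fold. It had 40.6 and 109 CPM in SP Gr-1hi, 11.7 and 22.3 CPM in BM Gr-1hi, 12.8 and 18.0 CPM in SP Gr-1lo, and 4.90 and 4.99 CPM in BM Gr-1lo. Within each tissue the Gr-1hi libraries were above the Gr-1lo libraries. The log2 difference was 2.27 ± 0.51 (SE, adjusted p = 0.00658) in the spleen and 1.78 ± 0.54 (SE, adjusted p = 0.0216) in the bone marrow. Without library 6 the spleen difference was 1.37 (adjusted p = 0.016). The spleen call was lost with no filter (2.14, adjusted p = 0.07) and without library 7 (2.03, adjusted p = 0.0566). The bone marrow call was lost with no filter (1.67, adjusted p = 0.148) and without library 10 (1.32, adjusted p = 0.0929), 11 (1.74, adjusted p = 0.105) or 12 (1.77, adjusted p = 0.102).

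**Figure D1:**
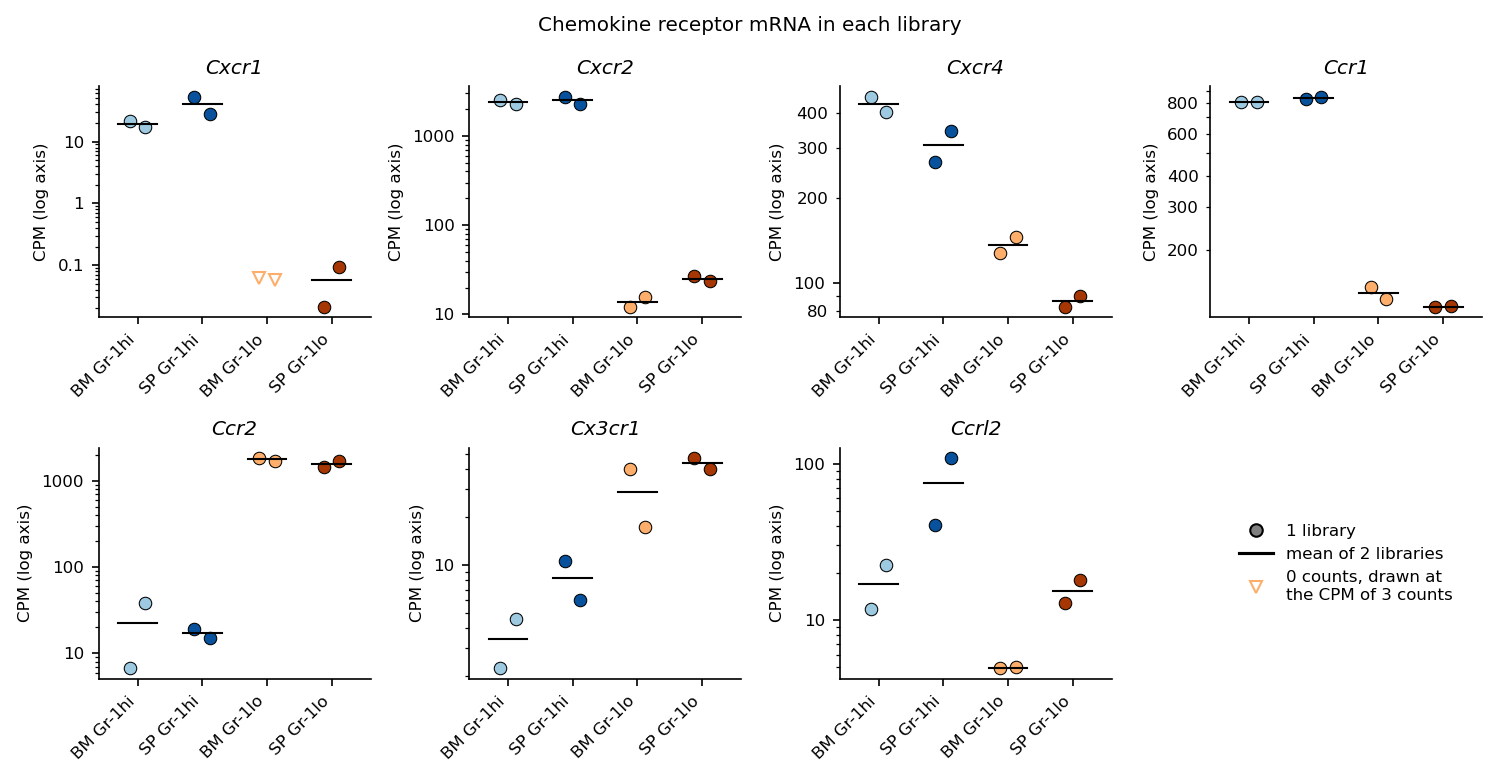
Level of each receptor in each library, in CPM on a log axis with its own range for each gene; points are libraries, lines are means of 2 libraries, and open triangles mark 0 counts, drawn at the CPM of 3 counts. Cxcr1, Cxcr2, Cxcr4, Ccr1 and Ccrl2 were higher in the Gr-1hi libraries of each tissue, and Ccr2 and Cx3cr1 in the Gr-1lo libraries.

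Set side by side per kb of exon, the receptors formed different orders in the subsets. In SP Gr-1hi cells the order was Cxcr2 at 825 ± 114 CPM per kb (SD, n = 2), Ccr1 at 297 ± 4.39 and Cxcr4 at 169 ± 30.5, followed by Ccrl2 and Cxcr1, Ccr2 and Cx3cr1. In BM Gr-1hi cells the first 3 were the same, at 792 ± 52.4, 284 ± 0.0771 and 237 ± 21.4 CPM per kb (SD, n = 2). In Gr-1lo cells the order began with Ccr2, at 231 ± 22.5 CPM per kb in the spleen and 261 ± 13.5 in the bone marrow (SD, n = 2), and went on with Cxcr4 at 47.8 ± 2.95 and 75.7 ± 7.11 and Ccr1 at 41.2 ± 0.158 and 47.0 ± 3.86. Some neighbours in these orders did not differ beyond their spread. These were Ccrl2 (28.7 ± 18.5) and Cxcr1 (27.3 ± 12.2), and Ccr2 (2.54 ± 0.42) and Cx3cr1 (1.85 ± 0.709), in SP Gr-1hi cells. In BM Gr-1hi cells they were Ccrl2 (6.54 ± 2.90) and Ccr2 (3.35 ± 3.33), and Ccr2 and Cx3cr1 (0.758 ± 0.367), and in BM Gr-1lo cells Cx3cr1 (6.34 ± 3.55) and Cxcr2 (4.56 ± 0.802).

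These 7 receptors made up most of the chemokine receptor mRNA. Over 24 receptor genes, they held 96.0% to 99.9% of the summed CPM per kb in each library, a share that the choice of well-expressed genes helps to set. The chemerin receptor Cmklr1, counted among the other receptors below, was left out of this total. It had 7.96 CPM per kb in SP Gr-1lo cells. Cxcr2 alone held 56.5% to 63.5% in Gr-1hi libraries, and Ccr2 alone held 63.5% to 65.5% in Gr-1lo libraries. The share of Cxcr4 was 10.3% and 14.5% in SP Gr-1hi against 18.2% and 17.2% in BM Gr-1hi, and 13.5% and 13.3% in SP Gr-1lo against 17.1% and 20.6% in BM Gr-1lo. In both subsets the spleen libraries had the smaller Cxcr4 share.

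**Figure D2:**
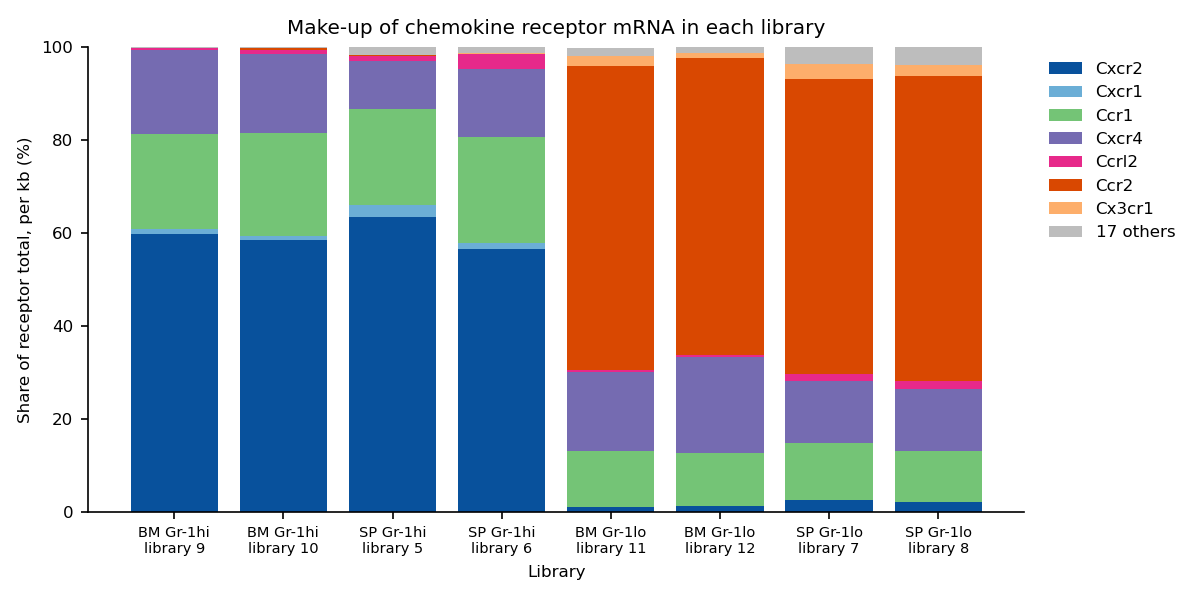
Share of each receptor in the summed CPM per kb of 24 chemokine receptor genes, in percent, for each library. Each bar is 1 library and grey is the sum of the 17 other receptors, with Cmklr1 left out. Cxcr2 fills 56.5% to 63.5% of the Gr-1hi bars and Ccr2 63.5% to 65.5% of the Gr-1lo bars.

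The second question was whether the receptors of spleen cells differed from those of marrow cells of the same phenotype. In Gr-1hi cells, Ccrl2 and Cxcr1 were called higher in the spleen, Cxcr4 was lower by less than 2-fold, and the other 4 did not pass the test. The 2 calls among 7 stand against 15.5% of all genes called, and the 3 receptors with an adjusted p at most 0.05 at any fold change stand against 34.0%. The median log2 difference (SP minus BM) was 0.07 for the 7 receptors and 0.03 for all genes tested.

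Cxcr4 was lower in the spleen in both subsets, by less than 2-fold at an adjusted p below 0.05. In Gr-1hi cells both spleen libraries (267 and 345 CPM) were below both marrow libraries (455 and 401 CPM), with a log2 difference of -0.48 ± 0.14 (SE, adjusted p = 0.0261). In Gr-1lo cells both spleen libraries (82.6 and 90.2 CPM) were again below both marrow libraries (128 and 146 CPM), with a log2 difference of -0.66 ± 0.14 (SE, adjusted p = 0.0268). The sign was the same in 15 of 15 alternatives in each subset, and the adjusted p was at most 0.05 in 11 of the 15 in each. In Gr-1hi cells it was above 0.05 in the fit of 4 libraries (-0.47, adjusted p = 0.0749), without library 5 (-0.39, adjusted p = 0.0573), without library 9 (-0.46, adjusted p = 0.075), and without libraries 5 and 7 (-0.30, adjusted p = 0.183). In Gr-1lo cells it was above 0.05 without library 7 (-0.60, adjusted p = 0.176), 8 (-0.72, adjusted p = 0.121), 11 (-0.76, adjusted p = 0.0652) or 12 (-0.56, adjusted p = 0.202). The test of tissue by subset gave a log2 difference of 0.18 ± 0.19 (SE, adjusted p = 0.567), so that no difference between the subsets was detected. B cell markers, 10 of 10 called higher in SP Gr-1hi and 9 of 10 in SP Gr-1lo, moved in the opposite direction to Cxcr4, and their part in its values was not tested. Other marker lists had lower sums in the spleen, as Cxcr4 did. In Gr-1hi cells the neutrophil markers summed to 85000 and 117000 CPM in the spleen against 156000 and 170000 CPM in the marrow, with 2 of 10 called lower. In Gr-1lo cells the granulocyte precursor markers summed to 3480 and 2560 CPM in the spleen against 4900 and 5060 CPM in the marrow, with 1 of 8 called lower. In Gr-1hi cells 3 of these 8 were called lower. The monocyte markers summed to 6860 and 6680 CPM in spleen Gr-1lo cells against 9700 and 9030 CPM in the marrow, with 0 of 9 called. In spleen Gr-1hi cells 4 of 9 monocyte markers were called higher. Their part in the Cxcr4 values was not tested either.

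Cxcr2 had a like level in spleen and marrow Gr-1hi cells but not in Gr-1lo cells. In Gr-1hi cells the libraries of the tissues overlapped and the log2 difference was 0.06 ± 0.15 (SE, adjusted p = 0.782). In Gr-1lo cells both spleen libraries were above both marrow libraries, with a log2 difference of 0.85 ± 0.15 (SE, adjusted p = 0.0139), short of the 2-fold threshold. It passed that threshold without library 12 (1.05, adjusted p = 0.0218), and its adjusted p was above 0.05 without library 7 (0.76, adjusted p = 0.0849) or 11 (0.69, adjusted p = 0.0919) and with quantile-normalized TPM (0.93, adjusted p = 0.575). The difference between the subsets had an adjusted p of 0.038 (log2 difference -0.79 ± 0.21, SE), also short of 2-fold, and it passed without library 5 (-1.04, adjusted p = 0.0185). In 7 of 13 alternatives the adjusted p stayed at most 0.05. It was above 0.05 with upper-quartile scaling (0.0544), without library 7 (0.126), 8 (0.0718), 9 (0.0819) or 11 (0.113), and without libraries 5 and 7 (0.0853), with log2 differences between -0.62 and -0.89. Of the neutrophil markers, 3 of 10 were called higher in spleen Gr-1lo cells, and their summed level was 12300 and 11000 CPM in the spleen against 5200 and 5240 CPM in the marrow. Ngp (3200 against 1090 CPM) and S100a9 (3260 against 1540 CPM) made up much of this sum, while Retnlg (11.4 against 24.7 CPM) and Mmp9 (26.5 against 39.0 CPM) had lower means in the spleen. Their part in the Cxcr2 difference was not tested.

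Cxcr1 was 2.09-fold higher in spleen Gr-1hi cells, a log2 difference of 1.07 ± 0.32 (SE, adjusted p = 0.0407). Both spleen libraries (53.5 and 27.9 CPM) were above both marrow libraries (21.6 and 17.3 CPM), but library 5 carried much of the difference. Without library 5 the log2 difference was 0.44 and the adjusted p was 0.209, and without libraries 5 and 7 they were 0.54 and 0.117. The call was also lost with RLE scaling (adjusted p = 0.0533), in the fit of 4 libraries (adjusted p = 0.0512), with quantile-normalized TPM (adjusted p = 0.0963), and without library 7 (1.07, adjusted p = 0.06), 8 (1.07, adjusted p = 0.0589), 9 (1.17, adjusted p = 0.107) or 10 (0.82, adjusted p = 0.207). In Gr-1lo cells, 9 counts over the spleen group against 0 over the marrow group made Cxcr1 at least 2.28-fold higher, with an adjusted p of 0.359.

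Ccrl2 was higher in spleen Gr-1hi cells, with library 6 carrying much of the difference. Both spleen libraries (40.6 and 109 CPM) were above both marrow libraries (11.7 and 22.3 CPM), a 4.40-fold difference (log2 2.14 ± 0.52, SE, adjusted p = 0.0218). Without library 6 the log2 difference was 1.19 (adjusted p = 0.0469). The call was lost with no filter (2.17, adjusted p = 0.123) and without library 9 (1.66, adjusted p = 0.0971), 11 (2.14, adjusted p = 0.0523) or 12 (2.14, adjusted p = 0.0516). In Gr-1lo cells both spleen libraries (12.8 and 18.0 CPM) were above both marrow libraries (4.90 and 4.99 CPM), with a log2 difference of 1.64 ± 0.53 (SE) that did not pass at an adjusted p of 0.156. It passed without library 5 (1.66, adjusted p = 0.0463) and without library 6 (1.66, adjusted p = 0.0378). Between the 2 SP Gr-1hi libraries, Ccrl2 and the B cell sum went opposite ways, since library 6 had more Ccrl2 (109 against 40.6 CPM) and a lower B cell sum (360 against 537 CPM) than library 5. The T cell sum was also lower in library 6 (71.4 against 116 CPM). The erythroid sum (409 against 119 CPM) and the neutrophil sum (117000 against 85000 CPM) were higher in library 6, as Ccrl2 was. The part of these cell types in the tissue difference was not tested.

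Cx3cr1 had more CPM in the spleen in both subsets without passing the test. In Gr-1hi cells (10.6 and 6.06 CPM in the spleen, 2.24 and 4.58 CPM in the marrow) the log2 difference was 1.30 ± 0.55 (SE, adjusted p = 0.118), which passed without library 11 (1.30, adjusted p = 0.0423) or 12 (1.30, adjusted p = 0.0436) and with DESeq2 (1.23, adjusted p = 0.0167). In Gr-1lo cells it was 0.61 ± 0.45 (SE, adjusted p = 0.512). Markers of nonclassical monocytes, the cells known for Cx3cr1, summed to 1770 and 1790 CPM in SP Gr-1hi against 1230 and 1160 CPM in BM Gr-1hi, with 2 of 8 called higher. Itgal, an integrin that most leukocytes express, made up most of that sum (1240 against 881 CPM), and Spn (108 against 135 CPM) and Fabp4 (0.702 against 1.12 CPM) had lower means in the spleen. In Gr-1lo cells they summed to 1140 CPM in both spleen libraries against 626 and 724 CPM in the marrow, again with 2 of 8 called higher. The part of such cells in the Cx3cr1 values was not tested.

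Ccr1 and Ccr2 showed no detected difference between tissues. For Ccr1 the log2 difference was 0.07 ± 0.09 (SE, adjusted p = 0.587) in Gr-1hi cells and -0.19 ± 0.09 (SE, adjusted p = 0.267) in Gr-1lo cells. For Ccr2 in Gr-1lo cells, where it is abundant, it was -0.18 ± 0.67 (SE, adjusted p = 0.916). This SE draws on all 8 libraries. The Ccr2 levels of the paired libraries differed by 5.73-fold in BM Gr-1hi, against 1.15-fold in SP Gr-1lo and 1.08-fold in BM Gr-1lo. For Ccr2 in Gr-1hi cells the log2 difference was -0.39 ± 0.71 (SE, adjusted p = 0.702), and the marrow libraries decided its sign. Without library 9 it was -1.24 (adjusted p = 0.00614) and without library 10 it was 1.25 (adjusted p = 0.00714), both past the threshold and in opposite directions.

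In Gr-1lo cells, edgeR's quasi-likelihood test called 0 of the 7 receptors between the tissues, where 4.06% of all genes were called. At an unadjusted p under 0.05 there were 3 receptors (Cxcr2, Cxcr4 and Ccrl2), and DESeq2 called 0. At an adjusted p at most 0.05 and any fold change there were 2 (Cxcr2 and Cxcr4), against 5.58% of all genes. The median log2 difference was 0.61 for the 7 receptors and -0.01 for all genes tested. The test of tissue by subset likewise called 0 of 7 by edgeR's quasi-likelihood test, against 9.74% of all genes. Cxcr2 was the single receptor with an unadjusted p under 0.05 and the single one with an adjusted p at most 0.05 at any fold change, against 16.4% of all genes, and DESeq2 called 0. For Ccr2 this test depended on the same 2 libraries, with a log2 difference of -1.08 (adjusted p = 0.034) without library 9 and 1.41 (adjusted p = 0.0168) without library 10.

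**Figure D3:**
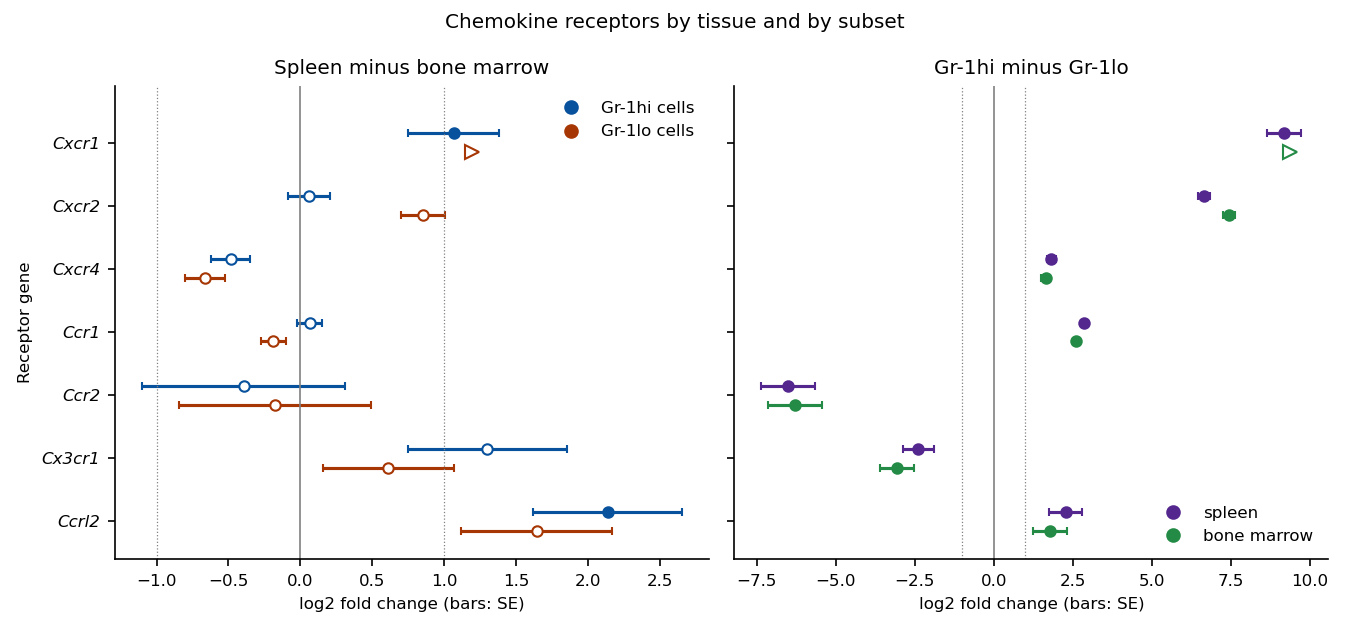
Log2 fold changes of the 7 receptors, spleen minus bone marrow (left) and Gr-1hi minus Gr-1lo (right); bars are SE, filled points passed the test (adjusted p at most 0.05 and at least 2-fold), dotted lines mark 2-fold, and open triangles are lower bounds for Cxcr1 against a group with 0 counts. Cxcr4 lies left of 0 in both subsets (-0.48 and -0.66), and Cxcr1 and Ccrl2 in Gr-1hi cells are the filled points on the left.

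Ratios within a library do not depend on its scaling, and they placed release and retention receptors side by side. The ratio of Cxcr2 to Cxcr4, per kb of exon, was 6.13 and 3.90 in SP Gr-1hi, 3.29 and 3.40 in BM Gr-1hi, 0.193 and 0.154 in SP Gr-1lo, and 0.0565 and 0.0635 in BM Gr-1lo. Both spleen libraries were above both marrow libraries in each subset, by a mean log2 difference of 0.55 (1.46-fold) in Gr-1hi and 1.52 (2.88-fold) in Gr-1lo cells. The ratio of Ccr2 to Cxcr4 in Gr-1lo cells was 4.70 and 4.94 in the spleen and 3.82 and 3.11 in the marrow, a 1.40-fold mean difference in the same direction. With 2 libraries against 2, an exact permutation test cannot give a two-sided p below 0.333, so these ratios are given as values. In Gr-1lo cells the ratio of Cxcr2 to Cxcr4 rests on low Cxcr2 levels, with means of 25.2 CPM in the spleen and 13.9 CPM in the marrow. Of 10 neutrophil markers, 3 were called higher and 0 lower in spleen Gr-1lo cells, and their part in this ratio was not tested. The ratio of Ccr2 to Cx3cr1 in Gr-1lo cells was 20.6 and 27.6 in the spleen and 30.5 and 65.6 in the marrow, where the libraries of each tissue differed more from each other.

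**Figure D4:**
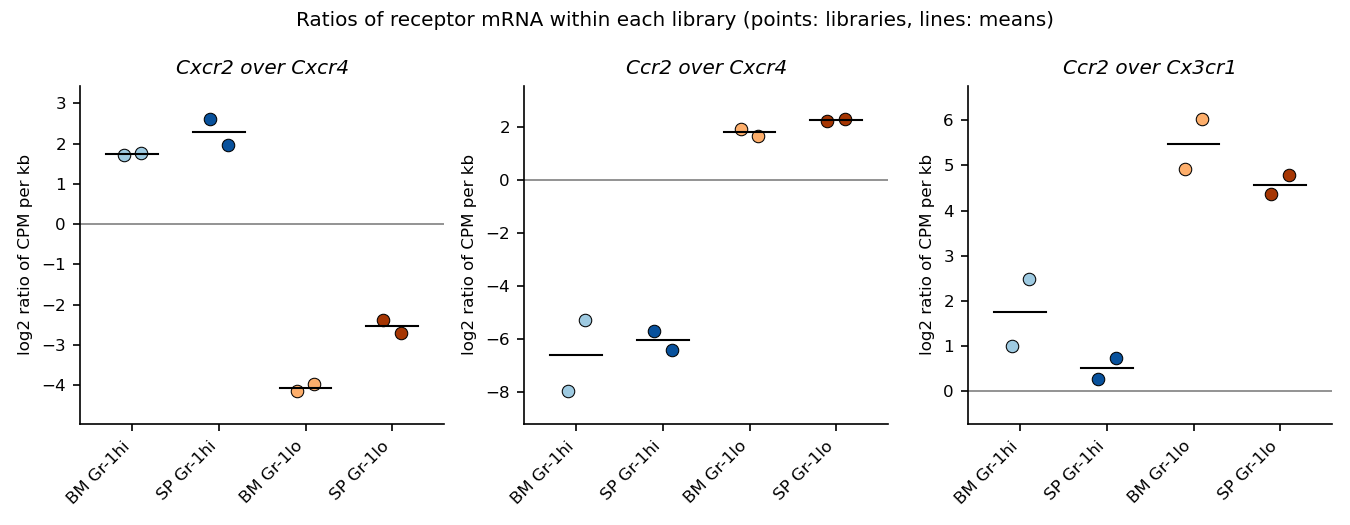
Log2 ratios of CPM per kb within each library for Cxcr2 over Cxcr4, Ccr2 over Cxcr4 and Ccr2 over Cx3cr1; points are libraries, lines are means of 2 libraries, and 0 marks equal levels. The spleen points lie above the marrow points for Cxcr2 over Cxcr4 in both subsets, by a mean of 0.55 in Gr-1hi and 1.52 in Gr-1lo cells. In SP Gr-1hi cells library 5 lies at 2.62 and library 6 at 1.96, against a marrow mean of 1.74.

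The other chemokine receptors listed summed to between 6.39 and 124 CPM in a library, with the highest sums in SP Gr-1lo cells. Not all of them were below the 7 receptors. In SP Gr-1lo cells Cmklr1 had a mean of 27.1 CPM and Ccrl2 one of 15.4 CPM. Some that passed the filter had no counts in BM Gr-1lo cells. The filter could keep a gene through the spleen libraries alone. The direction of the calls below may therefore follow in part from the filter. Of 18 listed, 12 passed the filter, and 10 of these were called higher and 0 lower in SP Gr-1hi than in BM Gr-1hi cells. In Gr-1lo cells 7 were called higher and 0 lower in the spleen. Of all genes tested, 15.5% were called between the tissues in Gr-1hi cells and 4.06% in Gr-1lo cells. Cxcr5, the receptor that guides B cells and follicular helper T cells into follicles, had 15.7 ± 4.87 CPM in SP Gr-1hi against 0.528 ± 0.0462 CPM in BM Gr-1hi (SD, n = 2, log2 difference 4.88, adjusted p = 9.55e-05). Cmklr1, the signalling receptor for chemerin, had 27.1 ± 5.19 CPM in SP Gr-1lo against 4.44 ± 1.31 CPM in BM Gr-1lo (SD, n = 2, log2 difference 2.61, adjusted p = 0.00147). B cell and T cell markers were also called higher in the spleen, in 10 of 10 and 9 of 10 cases in Gr-1hi cells. In Gr-1lo cells 9 of 10 and 10 of 10 of them were called higher. Splenic macrophage markers were called higher in 6 of 8 cases in Gr-1hi and 7 of 8 in Gr-1lo cells. The part of these cell types in the receptor values was not tested.

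Between the subsets, 8 of the other receptors were called higher and 2 lower in SP Gr-1hi than in SP Gr-1lo cells. In the bone marrow 4 were called higher and 2 lower. These counts among the 12 tested are read against the 49.6% and 57.3% of all genes called. Cxcr5 was on the Gr-1hi side in the spleen, at 15.7 ± 4.87 CPM in SP Gr-1hi against 1.96 ± 0.419 CPM in SP Gr-1lo (SD, n = 2, log2 difference 2.98, adjusted p = 1.4e-05). Cmklr1 was on the Gr-1lo side, at 2.62 ± 0.903 CPM in SP Gr-1hi against 27.1 ± 5.19 CPM in SP Gr-1lo (SD, n = 2, log2 difference -3.37, adjusted p = 1.92e-05). B cell markers moved with Cxcr5 between the subsets, with 10 of 10 called higher in SP Gr-1hi cells, and their part in its value was not tested.

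Genes that carry or end the receptor signal were measured with the receptors. Of 29 listed, 13 were called higher and 2 lower in SP Gr-1hi than in SP Gr-1lo cells, and 18 higher and 2 lower in the bone marrow, shares to be read against the 49.6% and 57.3% of all genes called. Arrb2, a beta-arrestin that uncouples and internalises receptors, was higher in Gr-1hi cells by a log2 difference of 2.37 ± 0.17 (SE, adjusted p = 5.94e-06) in the spleen and 3.47 ± 0.18 (SE, adjusted p = 6.04e-07) in the bone marrow. Rac2, a GTPase that drives neutrophil migration, was higher by 1.97 ± 0.09 (SE, adjusted p = 6.21e-07) and 2.44 ± 0.09 (SE, adjusted p = 1.42e-07). Grk3, a kinase that desensitises receptors, was lower in Gr-1hi cells by -1.68 ± 0.15 (SE, adjusted p = 1.84e-05) and -2.27 ± 0.16 (SE, adjusted p = 2.86e-06). Between the tissues, 2 were higher and 2 lower in spleen Gr-1hi cells (against 15.5% of all genes called) and 1 higher and 0 lower in spleen Gr-1lo cells (against 4.06%). In Gr-1hi cells Grk3 was higher in the spleen (log2 difference 1.55 ± 0.16, SE, adjusted p = 0.00043). Arrb1, another beta-arrestin, was lower (154 ± 23.0 CPM against 309 ± 44.9 CPM, SD, n = 2). Its log2 difference of -1.002 ± 0.13 (SE, adjusted p = 0.00107) lay at the 2-fold threshold. Rgs18, a regulator that shortens G protein signals in blood cells, was also lower (-1.07 ± 0.20, SE, adjusted p = 0.00524).

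For each receptor, the genes with the most similar pattern were found as those with the smallest root mean square (RMS) difference of log2 CPM, centred on each gene's mean over the 8 libraries, among 8597 genes with a mean of at least 10 CPM. The libraries share 4 groups, so this likeness largely follows the subset contrast and is given as a description. The nearest gene was Ankrd33b for Cxcr2 (RMS difference 0.276), Rufy4 for Cxcr1 (0.174), Tmc4 for Ccr1 (0.117) and Glipr1 for Cxcr4 (0.132). For the Gr-1lo receptors it was Arhgef37 for Ccr2 (0.31) and Tmem106a for Cx3cr1 (0.354). Ccrl2 had the least similar nearest gene, Bank1 (0.505), followed by Socs1 (0.537) and Ifi208 (0.584).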

How the data were processed

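RNA-seq libraries (paired reads of 101 bases, a stranded poly(A) kit) were made from 8 samples in 4 groups. Per the labels and the study's methods, the authors trimmed the reads, aligned them to GRCm38 with STAR and counted them per gene with featureCounts; the deposited values are raw counts, 1 column per library. No row lacked a gene, and no column of another sample was present. Counts were tested here with edgeR 4.0.16 in R 4.3.3 (filterByExpr, TMM, robust quasi-likelihood fit of all 8 libraries with 1 term per group, 4 residual degrees of freedom, Benjamini-Hochberg adjustment over 17650 genes). A gene was called at an adjusted p at most 0.05 and a fold change of at least 2. CPM used TMM-adjusted library sizes, and CPM per kb used the exon lengths of GENCODE release M21 (53947 genes had one). Depth ran from 33453580 to 68316154 counts, and floors of 3 counts cover counting error only. Adjusted p-values in the text are from this edgeR fit, except where DESeq2 1.42.0 is named. The study itself tested quantile-normalized TPM, which was run as an alternative beside RLE and upper-quartile scaling, no filter, fits of 4 libraries, DESeq2, leaving out each library, and leaving out libraries 5 and 7; a lone library left in a group is then assumed to vary like the other groups. The script was tested on simulated data. The named genes were the 7 receptors, from each list up to 3 called genes per direction (among those whose higher group averaged 10 CPM or more), and the 3 genes with the pattern nearest each receptor, of which the text gives the nearest ones. The receptors, the lists and the markers were chosen with earlier results of these data known. No wild-type samples and no protein sequences were used here. A gene that the naming rule picked among the other chemokine receptors is not reported here.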

Additional observations from a re-analysis of the deposited data

How the results depend on the processing

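Over 15 alternatives (13 for the test of tissue by subset), 461 of 510 single-gene values kept their direction and their side of the threshold, 22 lost a call, 11 gained one and 16 changed sign. In SP Gr-1hi against BM Gr-1hi cells, the 2 receptors called became 1 with RLE scaling, with no filter, in the fit of 4 libraries, with quantile-normalized TPM and without libraries 5 and 7, were 3 with DESeq2, which added Cx3cr1, and were 1 to 2 when single libraries were left out. In the same comparison in Gr-1lo cells, 0 became 1 with no filter (Cxcr1) and in the fit of 4 libraries (Ccrl2), and ranged from 0 to 1 when single libraries were left out. Under the stricter thresholds, 3 receptors were called between subsets in the spleen and 4 in the bone marrow. The test of tissue by subset called 0 to 1 when single libraries were left out. Values near 0 changed sign in SP Gr-1hi against BM Gr-1hi cells, Cxcr2 to -0.013 (RLE), -0.007 (DESeq2) and -0.073 (without libraries 5 and 7) and Ccr1 to -0.009 (RLE) and -0.003 (DESeq2). Leaving out single libraries gave ranges of -0.169 to 0.117 for Cxcr2, -0.036 to 0.068 for Ccr1 and -1.24 to 1.251 for Ccr2. For the test of tissue by subset these ranges were -0.112 to 0.273 for Cxcr4, -1.079 to 1.412 for Ccr2, -0.039 to 1.17 for Cx3cr1 and -0.472 to 0.942 for Ccrl2. The cause was not tested. RLE scaling moved the median of all genes between subsets from -0.175 to -0.025 in the bone marrow and from -0.088 to 0.045 in the spleen. No paired analysis was possible because, although the marrow cells are described as autologous, the library numbers run from 5 to 12 and do not tie libraries to animals. With 2 libraries per group the tests rest on few degrees of freedom, and Cxcr1 in Gr-1lo cells lies at the limit that a count of 0 allows.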

Other observations

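Ligands of the receptors were also transcribed by the sorted cells. Of 19 listed, 10 passed the filter. Between Gr-1hi and Gr-1lo cells 3 were called higher and 2 lower in the spleen, where 49.6% of all genes were called. In the bone marrow 6 were called higher and 3 lower, where 57.3% of all genes were called. The filter could keep a ligand through a single group, so these counts and their direction may follow in part from the filter. Cxcl2, a ligand of Cxcr2, had 252 ± 168 CPM in SP Gr-1hi against 20.9 ± 5.14 CPM in SP Gr-1lo, and 265 ± 160 CPM in BM Gr-1hi against 5.51 ± 2.55 CPM in BM Gr-1lo (SD, n = 2). Ccl6 was on the same side, at 668 ± 34.7 against 247 ± 12.0 CPM in the spleen. Ccl9, a ligand of Ccr1, was on the Gr-1lo side, at 7.89 ± 0.1 CPM in SP Gr-1hi against 214 ± 4.67 CPM in SP Gr-1lo, and 11.7 ± 0.93 against 258 ± 60.5 CPM in the bone marrow. Ccl2, the main ligand of Ccr2, was low but also higher in Gr-1lo cells, at 15.1 ± 1.36 against 3.33 ± 1.25 CPM in the spleen and 13.3 ± 1.81 against 1.46 ± 0.269 CPM in the bone marrow (SD, n = 2).

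Between the tissues, 3 ligands were called higher and 1 lower in spleen Gr-1hi cells, where 15.5% of all genes were called. In spleen Gr-1lo cells 1 was called higher and 1 lower, where 4.06% of all genes were called. Here too the counts may follow in part from the filter. Ccl5, a ligand of Ccr1 that T and NK cells also make, had 12.5 ± 2.74 CPM in SP Gr-1hi against 1.34 ± 0.322 CPM in BM Gr-1hi (SD, n = 2, edgeR log2 difference 3.21, adjusted p = 0.000942). The summed level of 10 T cell markers was 71.4 and 116 CPM in these spleen libraries against 6.94 and 10.4 CPM in the marrow, and its part in the Ccl5 value was not tested. Mif, which can bind Cxcr2 and Cxcr4, had 19.8 ± 10.5 against 7.26 ± 0.703 CPM (SD, n = 2, log2 difference 1.45, adjusted p = 0.0139).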
